A study of Mus musculus with 9 samples.

Results

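Gene expression in tumour cells sorted from lung metastases of the 4T1 breast cancer model was compared with that in tumour cells sorted from its primary tumours. The comparison rests on the 4 breast cancer (BC) libraries of a series of 9 RNA-seq libraries, chosen by their labels: primary tumours 1 and 5 and lung metastases 4 and 6. Of 23799 genes in the deposited table, 12832 had at least 1 RPKM (reads per kilobase of gene, scaled per library) in at least 2 of the 9 libraries and were described. All 4 BC libraries held GFP-sorted cells of 4T1-eGFP derived tumours taken at 28 days from an orthotopic model, in which tumour cells are placed in the organ they came from. All therefore stem from 1 established mouse mammary carcinoma line, and the eGFP label is carried by primaries and metastases alike. The other 5 libraries held YFP-sorted pancreatic ductal adenocarcinoma (PDAC) cells of mice carrying p48-Cre (a pancreatic Cre driver), p53F/+, KrasL/+ and the reporter ROSA-LSL-YFP. PDAC primary 1, liver metastasis 1 and lung metastasis 1 were taken at 25.67 weeks and carry SIRT6F/F in addition, and PDAC primary 5 and liver metastasis 5 were taken at 28.95 weeks without it. The labels do not say that the 2 BC libraries of a site came from separate animals. The p-values therefore measure at most the spread between libraries, with the PDAC libraries included where all 9 were fitted. In the fit of the 4 BC libraries alone, that spread was taken over all genes.

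4T1 cells spread from the mammary fat pad to the lung without further manipulation, and 4T1 tumours are known for a large expansion of neutrophils and other myeloid cells in the host. Cells arriving in the lung leave the matrix of the primary tumour, meet alveolar and airway epithelium and lie among resident and recruited immune cells. A cell that responds to interferon gamma raises antigen presentation genes, and IL-6 acting through STAT3 raises acute-phase genes.

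The libraries differed in depth and detection. The estimated reads on genes were 96600000 and 128000000 in primaries 1 and 5, 85200000 in lung metastasis 4 and 58800000 in lung metastasis 6. Lung metastasis 6 had 10938 genes above 0, against 18665 to 20478 in the other 3 BC libraries, and it listed at 0 691 tested genes that were at 5 RPKM or more in lung metastasis 4. Across genes, which are not independent replicates, the correlation of log2(RPKM + 1) was 0.953 between the primaries and 0.818 between the metastases. Lung metastasis 4 correlated at 0.955 with primary 1, and lung metastasis 6 at 0.777. Short genes had the higher values in the metastases. In the shortest of 5 equal classes of tested genes, with exonic lengths of 23 to 1886 bases, the median log2 difference from the primary mean was 0.26 in lung metastasis 4 and 0.30 in lung metastasis 6. In the longest class, of 6962 to 123179 bases, it was -0.26 and -1.06. The part of gene length in the differences below was not tested, but list medians are also given after subtracting, in each lung library, the median of a gene's length class.

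**Figure D1:**
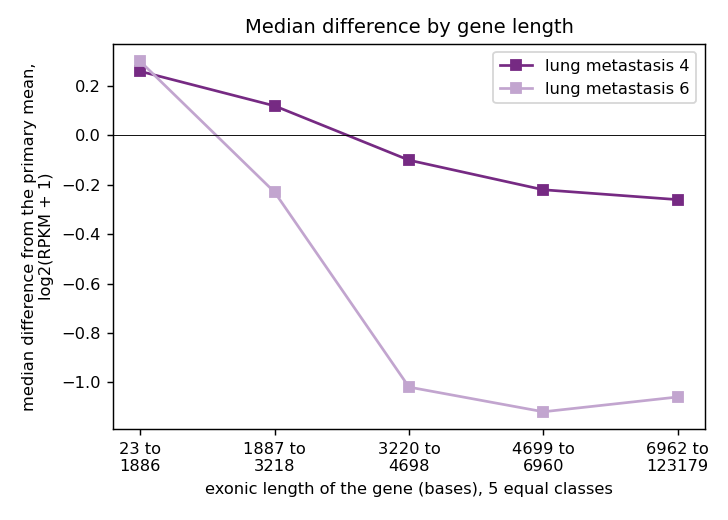
Median difference of each lung metastasis library from the primary mean, in log2(RPKM + 1), for 5 equal classes of the tested genes by exonic length in bases. Both libraries lie above 0 for the shortest class, and lung metastasis 6 drops to -1.02 and below in the 3 longest classes.

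Keratins of simple epithelia were abundant in all 4 libraries, but some epithelial genes were at or near 0 in lung metastasis 6. Krt8, a keratin of simple epithelia, was at 1931 and 1002 RPKM in primaries 1 and 5, compared with 1238 and 1323 RPKM in lung metastases 4 and 6. Epcam, an epithelial adhesion molecule, was at 71.1 and 156 RPKM in the primaries, compared with 94.9 and 66.2 RPKM in the metastases. The groups overlapped for both genes. Cdh1, the adhesion molecule E-cadherin, was at 2.75 and 18.2 RPKM in the primaries, 3.66 RPKM in lung metastasis 4 and listed at 0 in lung metastasis 6. Krt14, a basal keratin, was at 53.5 and 28.8 RPKM in the primaries, 51.4 RPKM in lung metastasis 4 and 0.0122 RPKM in lung metastasis 6. Lung metastasis 6 listed 4 of the 16 epithelial genes at 0, and the other 3 BC libraries 0. Over 13 tested epithelial genes, 6 differences were positive and 7 negative (35.6% and 63.1% of all tested genes), with a median of -0.12 against -0.29 over all tested genes. Krt19, a keratin of ductal cells, stood apart from the list, at 19.3 and 14.6 RPKM in the primaries, compared with 130.2 and 141 RPKM in the metastases. The mesenchymal list, with 5 of 10 tested differences positive and a median of -0.15, included Vim, the intermediate filament vimentin, at 1330 and 866 RPKM in the primaries, compared with 985 and 1384 RPKM in the metastases.

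No gene passed the test across the series. With the spread pooled over all 9 libraries, limma called 0 of 12832 genes (0% higher and 0% lower; smallest adjusted p = 0.974). At an unadjusted p under 0.05, 113 genes were higher (0.881%) and 152 lower (1.18%), and scaling all libraries to a common sum turned this split into 53 higher and 277 lower. In a fit of only the 4 BC libraries limma called 73 of 10384 genes at an adjusted p under 0.05. Of these, 34 were higher (0.327% of genes) and 39 lower (0.376%). That fit has 2 residual degrees of freedom. For most genes its standard error came wholly from the spread over all genes, by expression level. Disagreement between a gene's own replicate libraries then carried no weight in its p-value. The differences below are therefore given as values per library, with the standard error of the 9-library fit (n = 2 against 2) and, where named, the call of the 4-library fit. That standard error takes in the spread between PDAC libraries, which differ in SIRT6 genotype and age, so it is not the spread of the BC libraries alone. For S100a8 it was 1.69, and 0.65 in the 4-library fit. For H2-DMa it was 1.97, and 0.62 in the 4-library fit. The 0.65 and 0.62 come from the spread over all genes and are not the spread of these genes between their own libraries. No gene named below passed in the 9-library fit. Over the other alternatives, the largest limma adjusted p of each gene called in the 4-library fit was 1, and its 4-library value was the smallest.

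A second description did not use a test. In 150 genes (1.17% of 12832) both lung libraries exceeded both primaries by at least 1 on the log2(RPKM + 1) scale, and in 171 genes (1.33%) both lay below both primaries by at least 1. The 150 higher genes were all at 1 RPKM or more in lung metastasis 6, which a step of 1 on this scale requires. In the 4-library fit 33 of them were called, and 18 of the 171 lower genes. Over all genes of that fit 0.327% were called higher and 0.376% lower. The genes were chosen by their gap in the same 4 libraries, so these calls are no separate support. Among the 171 lower genes 64 were listed at 0 in lung metastasis 6, and 57 were at 1 RPKM or more there. The lower genes thus rest more on lung metastasis 4. Without a minimum step the groups did not overlap for 2024 genes in the higher direction (15.8%) and 3463 in the lower (27.0%). After subtracting the median of each length class, 132 higher and 95 lower genes of 12395 kept or gained the step, and these held 104 of the 150 and 78 of the 171.

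**Figure D2:**
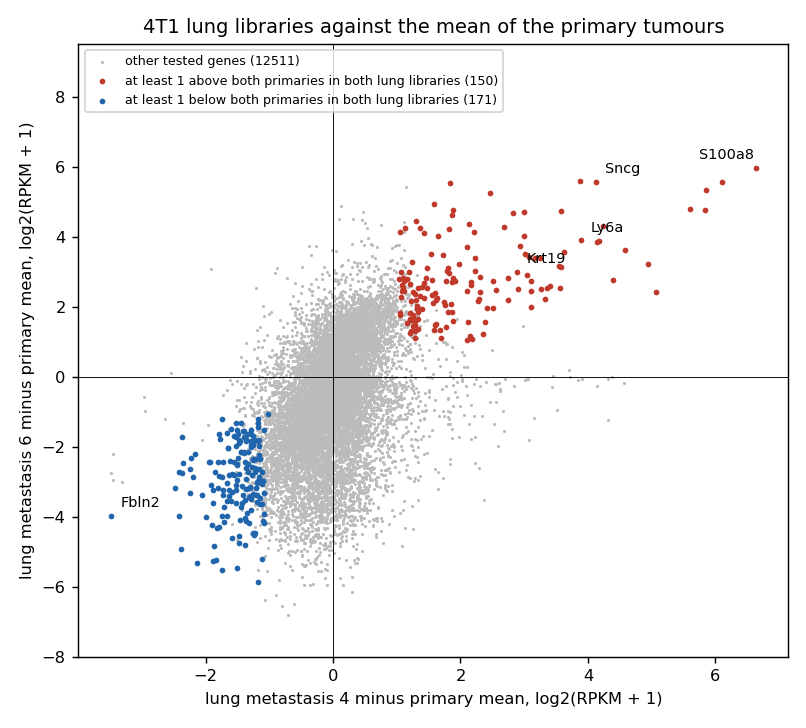
Difference from the primary mean in log2(RPKM + 1) for each tested gene, lung metastasis 4 on the horizontal axis and lung metastasis 6 on the vertical axis. Red marks the 150 genes at least 1 above both primaries in both lung libraries and blue the 171 genes at least 1 below. S100a8 lies farthest to the upper right and Fbln2 farthest to the left among the blue points.

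Several genes expressed by neutrophils were among the largest gaps in the higher direction, though the neutrophil markers Ly6g and Cxcr2, given below, were not. S100a8, which with S100a9 forms the calcium-binding protein calprotectin, was at 15 and 13.2 RPKM in the primaries, compared with 1503 and 939 RPKM in the metastases. Its log2 difference was 6.30 ± 1.69 (SE, n = 2 against 2; limma adjusted p = 0.974, and 1.71e-18 in the 4-library fit). S100a9 was at 8.54 and 9.88 RPKM in the primaries, compared with 588 and 411 RPKM in the metastases. For both genes the lower metastasis was far above the higher primary. Retnlg, a resistin-like protein of granulocytes, was at 1.98 and 1.18 against 173 and 119.6 RPKM (5.83 ± 1.81). Ngp, a protein of neutrophil secondary granules, was at 1.42 and 1.87 against 150.2 and 69.7 RPKM (5.29 ± 2.60). The stefin A genes Stfa2l1, Stfa2 and Stfa3, cysteine protease inhibitors, were at 0.130 to 0.579 RPKM in the primaries, compared with 11.0 to 66.9 RPKM in the metastases. These are near-identical copies whose reads cannot be assigned with certainty. Chi3l1, a secreted chitinase-like glycoprotein, was at 0.234 and 0.177 against 13.3 and 30.8 RPKM.

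Over the neutrophil list, 23 of 24 tested genes had positive differences, 14 were shifted up in both lung libraries and 7 of 17 genes entering the 4-library fit were called there, all higher. The list median was 2.21. Relative to all tested genes it was 3.75 in lung metastasis 4 and 2.70 in lung metastasis 6, and 3.47 and 2.15 after centring by gene length. The members did not behave alike in lung metastasis 6. Ly6g, a surface marker of mouse neutrophils, was at 0.142 RPKM and listed at 0 in primaries 1 and 5, at 14.3 RPKM in lung metastasis 4 and listed at 0 in lung metastasis 6. Cxcr2, a chemokine receptor of neutrophils, was at 0.102 and 0.0728 RPKM in the primaries, 8.01 RPKM in lung metastasis 4 and 0.0282 RPKM in lung metastasis 6. Mmp8, Camp, Ltf, Elane and Csf3r were likewise high in lung metastasis 4 alone, where they were at 5.24 to 50.9 RPKM, against 0 to 0.926 RPKM in lung metastasis 6. The exception with a negative difference was Mmp9, a gelatinase also made by tumour cells, at 41.9 and 69.1 against 37.6 and 22.1 RPKM. In bulk samples, fewer cells of a type and less RNA per cell cannot be told apart.

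Markers of other leukocytes followed no single direction. The summed RPKM of the neutrophil list was 122 and 161 in the primaries and 3147 and 1939 in the metastases. The macrophage and monocyte list summed to 775 and 1153 in the primaries and 1005 and 728 in the metastases, and the pan-leukocyte list to 88.3 and 97.5 in the primaries and 274 and 154 in the metastases. Of 24 tested macrophage genes 16 had negative differences (63.1% of all genes did), and the list lay 0.01 and -0.30 from all genes. Members went in both directions. C1qa, a complement subunit made by tissue macrophages, was at 50.3 and 97.2 RPKM in the primaries, compared with 24.5 and 18.2 RPKM in the metastases. Csf1r, the receptor of macrophage growth factor, was at 3.49 and 7.80 RPKM in the primaries, 1.44 RPKM in lung metastasis 4 and listed at 0 in lung metastasis 6. Cd68, a lysosomal protein of macrophages, was at 21.8 and 22.8 against 33.6 and 26.7 RPKM. Ptprc, the leukocyte common antigen CD45, was at 0.316 and 1.40 RPKM in the primaries, 1.26 RPKM in lung metastasis 4 and listed at 0 in lung metastasis 6. Cd52, a small leukocyte surface protein, was at 5.82 and 10.8 against 45.7 and 25.3 RPKM. The 16 T and NK cell genes summed to 5.22 and 13.7 RPKM in the primaries, 28.2 RPKM in lung metastasis 4 and 0.019 RPKM in lung metastasis 6, where 14 of them were listed at 0.

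**Figure D3:**
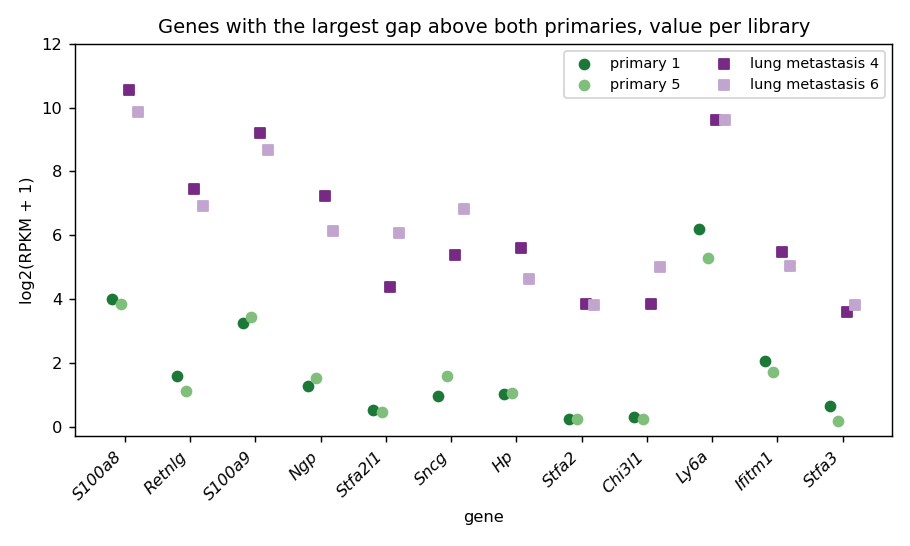
Value in each of the 4 BC libraries, in log2(RPKM + 1), for the 12 genes with the largest gap above both primaries. Circles are primaries and squares are lung metastases, and every square lies above both circles of its gene.

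Several acute-phase genes, which the liver and stressed epithelia make in response to IL-6, were also higher in both metastases. Saa3, serum amyloid A made outside the liver, was at 9.10 and 8.33 RPKM in the primaries, compared with 102 and 57.8 RPKM in the metastases (3.00 ± 0.59; limma adjusted p = 0.00105 in the 4-library fit). Lrg1, a leucine-rich glycoprotein, was at 6.50 and 5.89 against 149.9 and 47.2 RPKM (3.57 ± 0.86). Hp, the haemoglobin-binding protein haptoglobin, was at 1.02 and 1.05 against 47.6 and 23.9 RPKM (4.09 ± 1.75). Lcn2, a siderophore-binding lipocalin that neutrophils also store, was at 32.3 and 47.5 against 228 and 155 RPKM. Both metastases were above both primaries for each of these 4 genes. Of 15 tested genes of the list 11 had positive differences, 6 were shifted up in both lung libraries and 3 of 11 were called higher in the 4-library fit. The list median relative to all genes was 1.61 in lung metastasis 4 and 0.67 in lung metastasis 6 (1.48 and 1.17 centred by gene length). The other 9 members were not shifted by the full step, and Saa1, Il6, Steap4, Orm1 and Lbp were at 0 to 0.0708 RPKM in lung metastasis 6. Socs3, the feedback inhibitor of STAT3 signalling, was at 389 and 106 RPKM in the primaries, compared with 156 and 16.9 RPKM in the metastases. Neutrophils also express Lcn2, Lrg1 and Hp, and the neutrophil list moved with these genes. Its part in them was not tested.

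Genes of MHC class II antigen presentation were higher by a like amount in both metastases. Class II molecules are pairs of alpha and beta chains that display peptides to CD4+ T cells, and Cd74 is the invariant chain that escorts them. H2-DM exchanges the peptide. Class II promoters are known for a conserved X box and Y box that recruit the coactivator Ciita. The 250 bases before the start of 3 shifted genes on chromosome 17 are shown because they hold letters of these elements. The Y box core TGATTGG and, where these exact letters occur, the X box core CTAGNAAC are in capitals. Other spellings of either box were not searched, so a promoter without a match may still hold one. Sequences run 5′ to 3′ on the strand of the gene and are from RefSeq, build GRCm38.p6.
H2-Aa, chr17:34287824-34288073, minus strand: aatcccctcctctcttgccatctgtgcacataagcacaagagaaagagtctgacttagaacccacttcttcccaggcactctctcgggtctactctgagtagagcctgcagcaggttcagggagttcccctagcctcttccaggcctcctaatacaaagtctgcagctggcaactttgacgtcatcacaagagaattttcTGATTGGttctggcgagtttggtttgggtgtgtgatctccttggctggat
H2-Eb1, chr17:34305617-34305866, plus strand: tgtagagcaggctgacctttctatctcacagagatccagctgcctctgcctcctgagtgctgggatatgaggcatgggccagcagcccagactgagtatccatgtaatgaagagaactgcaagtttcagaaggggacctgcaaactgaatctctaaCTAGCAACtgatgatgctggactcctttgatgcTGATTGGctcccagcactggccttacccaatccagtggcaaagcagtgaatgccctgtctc
H2-DMb1, chr17:34152941-34153190, plus strand: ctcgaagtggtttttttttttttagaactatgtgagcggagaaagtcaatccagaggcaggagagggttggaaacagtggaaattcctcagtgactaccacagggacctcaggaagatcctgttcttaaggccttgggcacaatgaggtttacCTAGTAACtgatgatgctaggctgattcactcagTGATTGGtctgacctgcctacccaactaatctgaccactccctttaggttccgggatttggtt
The Y box core began 50, 61 and 63 bases before the start in H2-Aa, H2-Eb1 and H2-DMb1, and the X box core 94 and 97 bases before it in H2-Eb1 and H2-DMb1. On either strand, the Y box core was in 7.23% of 32851 promoters of this length, the X box core in 3.06% and both in 0.21%. Of 11 class II genes 8 were counted, with 9 promoters, of which 6 held the Y box core, 3 the X box core and 3 both. H2-Ab1, Cd74 and Ciita were not in this count, and any entry on the chromosome of Cd74 was left out by the rule used. H2-Oa and H2-Ob, which were not shifted, were among those with a Y box core, while both promoters of H2-DMa, which was shifted up, held neither core. A match is a description of the letters only.

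H2-Ab1, a class II beta chain, was at 58.0 and 114 RPKM in the primaries, compared with 777 and 857 RPKM in the metastases, which is 3.31 ± 1.28 on the log2 scale (limma adjusted p = 4.56e-04 in the 4-library fit). H2-Eb1, the other beta chain, was at 37.4 and 104 against 744 and 571 RPKM, and H2-Aa, an alpha chain, at 25.4 and 73.3 against 382 and 290.3 RPKM. Cd74 was at 262 and 488 against 2975 and 2704 RPKM (2.98 ± 1.51). The peptide exchange gene H2-DMa was at 22.4 and 24.2 against 162 and 171 RPKM (2.78 ± 1.97). Each of these genes was higher in both metastases than in both primaries, and the metastases lay close to each other. Ciita itself was at 0.371 and 1.23 RPKM in the primaries, compared with 3.01 and 3.02 RPKM in the metastases. Of 11 tested genes 9 had positive differences, 7 were shifted up in both lung libraries and 6 of 9 were called higher in the 4-library fit. The list median relative to all genes was 3.07 in both lung libraries (2.84 and 2.27 centred by gene length). Ifi30, a lysosomal thiol reductase, had 18.2 and 29.0 RPKM in the primaries, 22.7 RPKM in lung metastasis 4 and 0.0216 RPKM in lung metastasis 6. Class II genes are expressed by macrophages, dendritic cells and B cells as well as by cells exposed to interferon gamma. The macrophage list sums given above overlapped between the groups, and the B and plasma cell list summed to 9.49 and 18.7 RPKM in the primaries and 60.3 and 45.3 RPKM in the metastases. In that list Igkc, an immunoglobulin constant region, was at 5.35 and 9.97 against 48.1 and 45.1 RPKM. The B cell genes Cd79a and Ms4a1 were at 2.04 RPKM and listed at 0 in lung metastasis 4, and at 0.0441 RPKM and listed at 0 in lung metastasis 6. The part of such cells in the class II values was not tested.

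MHC class I and interferon genes differed less. Psmb8, an immunoproteasome subunit, was at 282 and 163 RPKM in the primaries, compared with 555 and 582 RPKM in the metastases (1.40 ± 0.96). Psmb10, another immunoproteasome subunit, was at 289 and 188 against 545 and 681 RPKM. H2-Q7, a nonclassical class I gene with near-identical relatives, was at 22.2 and 18.1 against 51.1 and 44.5 RPKM. B2m, the class I light chain, was at 2415 and 2647 against 4960 and 8295 RPKM. Of 13 class I genes 9 had positive differences and 0 were shifted by the full step, with a median of 0.75 (1.07 and 1.00 above all genes in lung metastases 4 and 6, and 0.96 and 0.67 centred by gene length). Of 27 interferon response genes 16 had positive differences and 3 were shifted up in both lung libraries: the interferon-inducible GTPases Tgtp1 and Igtp, and the T cell attracting chemokine Cxcl9. Tgtp1 was at 1.89 and 2.44 against 14.4 and 13.8 RPKM (2.26 ± 0.85). Igtp was at 38.0 and 32.2 against 159 and 79.0 RPKM. Cxcl9 was at 0.530 and 2.15 against 7.11 and 14.6 RPKM. Ifit1 and Usp18, which respond strongly to type I interferon, were higher than the primaries in lung metastasis 4 (9.33 and 27.6 RPKM) and listed at 0 in lung metastasis 6. The list lay 1.26 and 1.05 above all genes, and 1.20 and 0.49 centred by gene length, just under the 0.5 rule in lung metastasis 6. In the fit of the 4 libraries 0 genes of either list were called. Among genes outside the lists, chosen after their values were seen, the tryptophan-degrading enzyme Ido1 was at 0.268 and 0.761 against 10.5 and 18.8 RPKM. The proteasome activator subunit Psme2 was at 204 and 163 against 456 and 691 RPKM.

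Of the Ly6 family, Ly6a, Ly6c1 and Ly6e were higher in both metastases. Ly6a, the surface protein Sca-1, was at 73.0 and 37.7 RPKM in the primaries, compared with 791 and 790.1 RPKM in the metastases (3.89 ± 0.98; limma adjusted p = 6.33e-06 in the 4-library fit). Ly6c1 was at 16 and 10.6 against 144 and 79.6 RPKM (2.94 ± 1.10), and Ly6e at 148 and 86.2 against 559 and 606 RPKM (2.35 ± 0.64). These 3 genes were shifted in both lung libraries, and 2 of them, Ly6a and Ly6c1, were called in the 4-library fit. Of 8 tested Ly6 genes 5 had positive differences, and the list lay 1.87 and 1.17 above all genes (1.76 and 0.63 centred by gene length). Plaur, the urokinase receptor, which has the same fold, was at 328 and 105 against 141 and 194 RPKM, with overlapping groups. Sncg, a synuclein first described in breast carcinoma, was at 0.924 and 1.99 against 40.7 and 112 RPKM (4.84 ± 1.35; limma adjusted p = 4.64e-06 in the 4-library fit). Ifitm1, an interferon-induced membrane protein, was at 3.20 and 2.29 against 43.1 and 31.7 RPKM (3.35 ± 1.43). Genes outside the lists, again chosen after their values were seen, included the metallothioneins Mt1 (177 and 177 against 528 and 767 RPKM) and Mt2 (125 and 99.9 against 389 and 402 RPKM). The cytokine Il24 was at 3.44 and 1.97 against 29.6 and 38.0 RPKM. Gstt1, which conjugates glutathione as a theta-class transferase, had 0.890 and 4.25 RPKM in the primaries against 10.9 and 19.8 RPKM (2.32 ± 1.15).

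Galectin and S100 genes lay higher mainly in lung metastasis 6. Lgals3, a galactose-binding lectin, was at 350.1 and 147 RPKM in the primaries, compared with 695 and 850.5 RPKM in the metastases. S100a13 was at 68.7 and 30.7 against 89.2 and 249 RPKM, and Lgals9 at 84.7 and 53.1 against 116 and 154 RPKM. Of 14 tested genes 11 had positive differences and 0 were shifted by the full step. The list lay 0.53 and 2.31 above all genes in lung metastases 4 and 6, and 0.25 and 1.45 centred by gene length, which leaves lung metastasis 4 under the 0.5 used to describe a list.

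Some genes of lung epithelium were low in level but higher in both metastases, and others were not. Scgb1a1, the secretoglobin of airway club cells, was listed at 0 in both primaries and was at 6.05 and 24.3 RPKM in the metastases. Aqp5, a water channel of type I alveolar cells and glands, was at 1.44 and 1.34 against 9.75 and 13.7 RPKM. Napsa, the aspartic protease that processes surfactant protein B, was at 0.868 and 0.718 against 5.18 and 13.5 RPKM. It was not confined to lung libraries, with 343 RPKM in PDAC primary 1. Sftpc, surfactant protein C of type II alveolar cells, was at 0.682 and 0.626 RPKM in the primaries, 20.6 RPKM in lung metastasis 4 and 0.905 RPKM in lung metastasis 6. Ager was at 0.0892 and 0.132 against 1.44 and 0 RPKM, and Foxj1 at 0.168 and 0.972 against 0.104 and 0 RPKM. Of 17 list genes in the deposited table, 9 were at 0 in lung metastasis 6 and 2 in lung metastasis 4. Primaries 1 and 5 had 6 and 4 at 0. Of 18 listed genes 8 were tested, 7 of them with positive differences and 4 shifted in both lung libraries. A member at 0 in the primaries passes the filter through the metastases or the PDAC libraries, so these counts are a description. The list lay 1.73 and 1.78 above all genes (1.52 and 1.08 centred by gene length). The summed list was 5.43 and 5.62 RPKM in the primaries and 48.5 and 58.0 RPKM in the metastases, against 4267 and 5941 RPKM for the epithelial tumour cell list in the same metastases. Haemoglobin genes were higher as well, above all in lung metastasis 6. Hba-a1 was at 6.55 and 7.20 against 28.2 and 211 RPKM, Hba-a2 at 4.02 and 5.08 against 19.0 and 134 RPKM, and Hbb-b1 at 11.2 and 10.6 against 41.0 and 222 RPKM. The alpha copies are near-identical and share reads. Of 10 tested erythroid and platelet genes 7 had positive differences and 4, all haemoglobins, were shifted, and the list lay 0.68 and 2.24 above all genes (0.41 and 1.90 centred by gene length, under the 0.5 rule in lung metastasis 4). Alas2, the haem synthesis enzyme of red cell precursors, was at 0.189 and 0.187 against 0.439 and 0.143 RPKM.

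**Figure D4:**
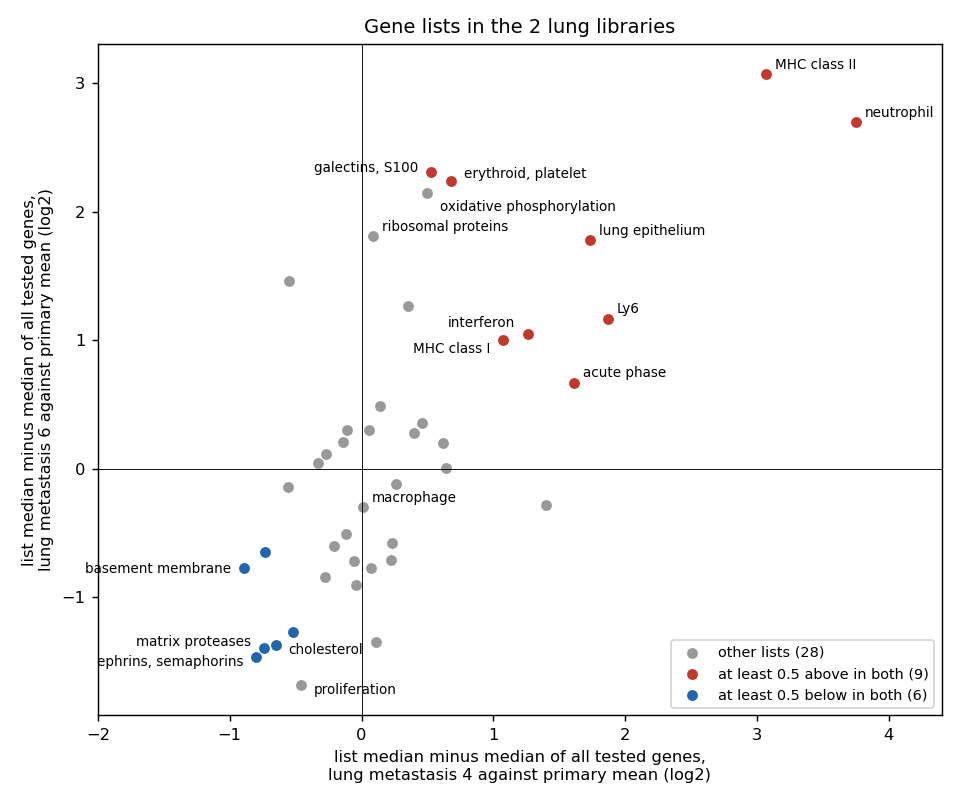
Median log2 difference of each of 43 gene lists minus that of all tested genes, lung metastasis 4 on the horizontal and lung metastasis 6 on the vertical axis. Red marks the 9 lists at least 0.5 above in both libraries, led by neutrophil and MHC class II genes, and blue the 6 lists at least 0.5 below in both.

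Among the genes with lower values, Fbln2 had the largest gap. Fbln2 encodes fibulin-2, a glycoprotein of elastic fibres and basement membranes, and was at 95.7 and 66.3 RPKM in the primaries, compared with 6.16 and 4.15 RPKM in the metastases (-3.73 ± 1.56; limma adjusted p = 1.67e-05 in the 4-library fit). Its 2 metastases were close to each other and both well above 0. Cxcl1, a neutrophil-attracting chemokine, was at 229 and 90.3 against 26.0 and 21 RPKM (-2.57 ± 1.15; limma adjusted p = 0.0105 in the 4-library fit). Dmp1, a phosphoprotein of mineralised matrix, was at 32.2 and 51.5 RPKM in the primaries, 8.47 RPKM in lung metastasis 4 and 0.0465 RPKM in lung metastasis 6. F2r, the thrombin receptor, was at 29.2 and 40.9 against 7.90 and 1.20 RPKM. Acly, which makes acetyl-CoA for lipid synthesis, was at 34.6 and 34.8 against 8.57 and 0.904 RPKM, and Scara3, a scavenger receptor family member, was at 37.5 and 37.1 RPKM in the primaries, 9.42 RPKM in lung metastasis 4 and listed at 0 in lung metastasis 6. All 6 genes were called lower in the 4-library fit. Ddb1, a DNA damage binding protein and ubiquitin ligase adaptor, was at 55.9 and 97.7 against 21.2 and 0.635 RPKM. Calu, a calcium-binding protein of the secretory pathway, was at 59.9 and 82.4 against 24.0 and 0.606 RPKM, and Slc7a5, a large neutral amino acid transporter, at 53.9 and 69.2 against 16.6 and 2.11 RPKM. These 3 were called as well, and in each lung metastasis 6 was far below lung metastasis 4. Adamts8, a secreted metalloprotease, was at 10.0 and 6.52 RPKM in the primaries, 0.630 RPKM in lung metastasis 4 and listed at 0 in lung metastasis 6 (-2.83 ± 0.63). Tmeff1, Ltbp4, Efnb1 and Gpr153 were also among the largest gaps, with 6.56 to 33.2 RPKM in the primaries and 0 to 3.39 RPKM in the metastases.

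**Figure D5:**
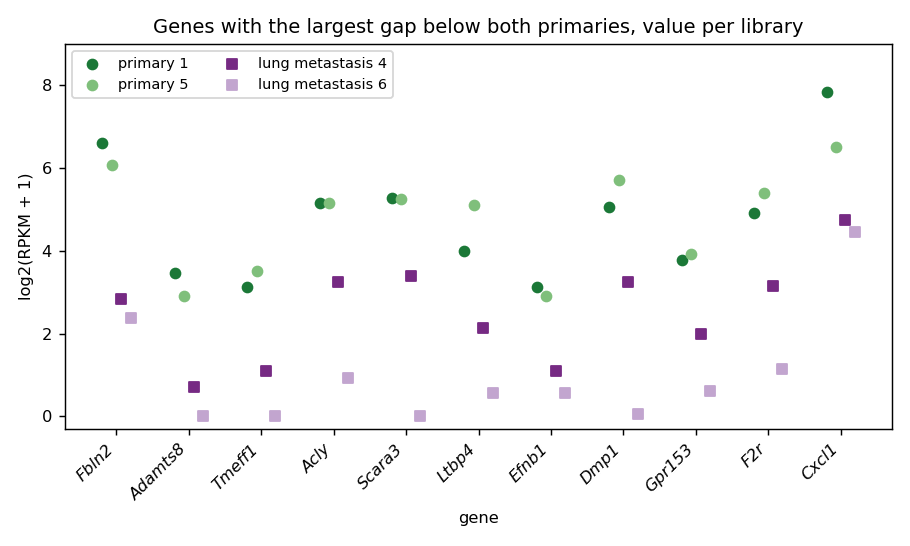
Value in each of the 4 BC libraries, in log2(RPKM + 1), for 11 of the 12 genes with the largest gap below both primaries. Circles are primaries and squares are lung metastases, and in 3 genes lung metastasis 6 is at 0 on this scale.

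Matrix and adhesion lists lay below all genes in both lung libraries, but not by 0.5 in both once centred by gene length. Lamb3, a laminin chain of epithelial basement membranes, was at 9.48 and 5.36 RPKM in the primaries, 1.58 RPKM in lung metastasis 4 and listed at 0 in lung metastasis 6. Itgb1, the beta chain shared by many matrix-binding integrins, was at 194 and 161 against 61.9 and 30.6 RPKM (-2.0 ± 0.83). Of 15 tested basement membrane, laminin and integrin genes 15 had negative differences, 4 were shifted down in both lung libraries and 0 were called in the 4-library fit. The list lay -0.89 and -0.77 from all genes in lung metastases 4 and 6. These are long genes, with a median exonic length of 7464 bases, and centred by gene length the values were -0.64 and -0.26. For fibrillar matrix and matricellular genes 17 of 22 differences were negative (63.1% of all genes), 3 genes were shifted, and the list lay -0.73 and -0.65 from all genes (-0.53 and -0.25 centred by gene length). Fbln2 was 1 of the 3. Col1a1, a chain of type I collagen, was at 7.06 and 31.7 against 2.91 and 0.548 RPKM. Wisp1, a secreted matricellular protein, was at 4.72 and 7.83 RPKM against 1.06 RPKM in lung metastasis 4, and was listed at 0 in lung metastasis 6.

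Matrix proteases kept their lower values after centring by gene length. Mmp13, a collagenase, was at 4.37 and 2.79 RPKM in the primaries, 0.706 RPKM in lung metastasis 4 and listed at 0 in lung metastasis 6 (-1.79 ± 0.58). Mmp14, a membrane-bound collagenase, was at 211 and 215 against 112 and 19.6 RPKM. Ctsk, a cathepsin that cleaves collagen, was at 2.47 and 3.31 RPKM against 0.765 RPKM in lung metastasis 4. Timp1, an inhibitor of these proteases, was at 304 and 69.7 against 136 and 379 RPKM, with overlapping groups. Of 19 tested genes 17 had negative differences and 2 were shifted, with the list -0.74 and -1.39 from all genes (-0.70 and -1.10 centred). Ephrins, their receptors and semaphorins, contact and guidance signals, had 13 of 14 negative differences and 3 shifted genes, and lay -0.80 and -1.46 from all genes (-0.56 and -0.93 centred). Of these, Efnb1, an ephrin ligand, was at 7.75 and 6.56 against 1.14 and 0.490 RPKM. Epha2, an ephrin receptor kinase, was at 8.38 and 15.8 against 3.27 and 2.90 RPKM. Ephb6, a kinase-inactive receptor, was at 13.2 and 9.52 RPKM against 2.30 RPKM in lung metastasis 4 and listed at 0 in lung metastasis 6. Genes outside the lists, chosen after their values were seen among those at 1 RPKM or more in lung metastasis 6, included the receptor kinase Axl (119 and 159.9 against 41.0 and 13.8 RPKM). The gap junction gene Gja1 was at 237 and 189 against 63.7 and 37.8 RPKM. Wwtr1, the transcriptional coactivator TAZ, was at 40.5 and 39.9 against 14.2 and 15.6 RPKM.

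Cholesterol genes pointed in 1 direction. Of 16 tested genes of synthesis and uptake 16 had negative differences (63.1% of all tested genes did), with a median of -1.37. Shifted down in both lung libraries was 1 of them (1.33% of all tested genes), and 0 were called in the 4-library fit (0.376% of all genes were called lower). The list lay -0.65 and -1.37 from all genes in lung metastases 4 and 6 (-0.60 and -0.89 centred by gene length). Srebf2, the transcription factor that controls these genes, was at 12.3 and 25.5 against 5.03 and 5.68 RPKM. Cyp51, a demethylase of sterol synthesis, was at 15.7 and 17.6 against 9.34 and 4.43 RPKM.

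A list of mouse counterparts of genes reported in human breast cancer lines that colonise the lung was also read. Of 14 tested genes 11 had negative differences, where 63.1% of all genes did, and 3 positive, with 2 shifted down, and the list lay -0.52 and -1.27 from all genes (-0.46 and -1.02 centred by gene length, which no longer meets the 0.5 rule). Cxcl1 and Mmp13, given above, were the 2 shifted genes. Tnc, the matricellular protein tenascin C, was at 1.27 and 2.51 RPKM in the primaries, 0.284 RPKM in lung metastasis 4 and listed at 0 in lung metastasis 6. Id1, an inhibitor of differentiation factors, went the other way, at 34.4 and 18.4 against 65.6 and 104 RPKM. Among chemokine and NF-kB response genes, 14 of 20 differences were negative (63.1% of all tested genes were) and the groups split by member. Csf1, the macrophage growth factor, was at 46.5 and 50.7 against 17.7 and 15.9 RPKM. Ccl5, which attracts T cells and monocytes, was at 0.596 and 3.59 against 16.3 and 51.3 RPKM. Csf3, the granulocyte growth factor, was at 188 and 40.8 against 197 and 47.2 RPKM, with overlapping groups.

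Some lists differed between the 2 lung libraries. Of 30 proliferation genes 21 had negative differences (63.1% of all tested genes did). The list lay -0.46 from all genes in lung metastasis 4 and -1.68 in lung metastasis 6. Centred by gene length the values were -0.51 and -1.20, which meets the 0.5 rule. Of the 30 genes, 3 were shifted down in both lung libraries (1.33% of all tested genes). In the 4-library fit 2 were called lower (0.376% of all genes). Mcm2, a replication helicase subunit, was at 64.4 and 51.5 RPKM in the primaries, 24.8 RPKM in lung metastasis 4 and 0.00635 RPKM in lung metastasis 6, while Ccnb2, a mitotic cyclin, was at 156 and 81.3 against 188 and 396 RPKM. Members of the list thus went in both directions. Oxidative phosphorylation genes (27 of 33 positive) lay 0.33 and 1.70 above genes of like length, and ribosomal protein genes (35 of 37 positive) -0.09 and 1.24.

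The same genes were read in the PDAC metastases, which share their PDAC primaries with each other but no library with the BC groups. Of the 150 genes shifted up in both BC lung libraries, 84 had positive differences between the PDAC lung metastasis and PDAC primaries, where 33.7% of all tested genes did, and 99 between PDAC liver metastases and primaries, where 53.9% did. Of the 171 genes shifted down, 111 were negative in PDAC lung (63.1% of all genes) and 88 in PDAC liver (46.1%). The difference of the BC lung effect from the PDAC lung effect was tested in the 9-library fit, and limma called 0 genes (0% in each direction; smallest adjusted p = 0.148, with 1147 genes at an unadjusted p under 0.05). Against the PDAC liver effect limma also called 0 (smallest adjusted p = 0.813, with 530 at an unadjusted p under 0.05). S100a8 was at 609 and 9.28 RPKM in PDAC primaries 1 and 5, 5035 and 101301 RPKM in the PDAC liver metastases and 8507 RPKM in the PDAC lung metastasis. Its BC lung effect differed from the PDAC lung effect by -0.44 ± 2.68 (limma adjusted p = 0.979) and from the PDAC liver effect by -1.85 ± 2.39 (limma adjusted p = 0.879). The PDAC lung metastasis is a single library, assumed to vary like the others. The epithelial tumour cell list summed to 2268 and 18033 RPKM in PDAC primaries 1 and 5. In liver metastases 1 and 5 it gave 6729 and 355 RPKM, and in the PDAC lung library 243 RPKM. The erythroid and platelet list gave 61343, 333, 360465, 201607 and 360303 RPKM in the same order. The lung epithelium list reached 36338 RPKM in that lung library and at most 483 RPKM in the other PDAC libraries. The part of such content in the sign counts and effect differences was not tested.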

How the data were processed

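RNA was copied with the SMART-seq v4 kit and libraries were made with Nextera XT, per the labels' protocols, a procedure that does not mark strand. The submitters' processing notes name the build mm9. The aligner, counting program and annotation are not given in the sources used here. Deposited by the authors was 1 table of 23799 genes, named CPM. Its low values, multiplied by exonic length (GENCODE M21, lengths for 93.0% of genes), were within 0.02 of whole multiples of 1 step for 62.8 to 74.4% of values per library, against 5.0 to 6.0% without length, so the deposited values were read as RPKM. Exactly 1 was listed for 7 genes in all 4 BC libraries, Cyp2f2 of the lung epithelium list among them, and 448 duplicate symbols were used once.

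limma 3.58.1 (R 4.3.3, statmod 1.5.0; trend, robust) was run on log2(RPKM + 1), which understates changes of low genes, with 1 mean per group, two-sided, with Benjamini-Hochberg adjustment over all tested genes. It was tested on simulated data that gave every gene the same spread and held no library with few detected genes. How it performs with a library like lung metastasis 6 was not tested. A list was described when its median minus that of all tested genes was at least 0.5 in size, with 1 sign, in both lung libraries. Named genes were the 12 with the largest gap per direction with at least 5 RPKM in the higher group (predicted loci, haemoglobin and immunoglobulin segments left out), 3 per described list, up to 6 per direction called in the 4-library fit, Gstt1 and the cell type markers. Some genes that this rule names are not reported here. The members and lists were chosen with earlier results of these data known. BC primaries and metastases share no replicate number and were not paired.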

Additional observations from a re-analysis of the deposited data

How the results depend on the processing

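The limits are the 2 libraries a group and the few genes detected in lung metastasis 6. The 9-library limma fit called 0 BC genes under every alternative but 2: 73 with only the 4 BC libraries and 2 with library weights (1100001G20Rik and Gm11428). Leaving out 1 of the 8 libraries of groups with 2 gave 0 to 0. At an unadjusted p under 0.05 the split of 113 higher and 152 lower became 70 and 277 with median-ratio scaling, 114 and 33 with a pseudocount of 0.1, 278 and 840 with library weights, 276 and 1326 without lung metastasis 4, and 37 and 12 without lung metastasis 6. The median difference of all tested genes was -0.29, and -0.78, -0.06 and -0.52 with common sum, quantile and median-ratio scaling.

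The 150 genes shifted up became 85 with a pseudocount of 5, 99 with common sum scaling, 92 with median-ratio scaling, 2024 with no minimum step, 46 with a step of 2, and 252 to 1551 without 1 library, which loosens the condition (1551 without lung metastasis 4, 325 without lung metastasis 6, 442 without primary 1, 252 without primary 5). The 171 shifted down became 409 and 40 with pseudocounts of 0.1 and 5, 441 and 287 with common sum and median-ratio scaling, 3463 with no minimum step, 5 with a step of 2, 199 to 4317 without 1 library (4317 without lung metastasis 4, 1091 without primary 1, 360 without primary 5) and 95 when centred by gene length (added after seeing the data). The 24 genes with the largest gaps did not overlap between groups under any scaling or pseudocount. They were chosen by this gap in the main setting, so that outcome was largely fixed beforehand. In the main setting 15.8% of all tested genes did not overlap in the higher direction and 27.0% in the lower.

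The difference from the PDAC lung effect gave 49 and 3 called genes with pseudocounts of 0.1 and 5, 112 with no filter, 74 with library weights, and 0 to 328 without 1 library (328 without PDAC primary 1). The difference from the PDAC liver effect gave 0 to 15 (15 without PDAC primary 1). With the replicate number as a block, which pairs PDAC libraries only, the count of called genes was 0 for the BC comparison and for both differences. No described list changed sign, but centred by gene length 6 of the 15 no longer met the 0.5 rule (erythroid and platelet, interferon, galectin and S100, basement membrane, fibrillar matrix and human lung-metastasis lists) and the proliferation list met it. Of 62 named genes 27 passed in the 4-library fit, as did 73 of all 10384 genes in it. Some were named because that fit called them, and others for their gap in the same libraries. The count of 27 was therefore largely fixed beforehand. The cause of the changes between settings was not tested.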
